A study of Mus musculus with 24 samples.

Results

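The genes described here are the repressors of the circadian clock. They are the period genes Per1, Per2 and Per3, the cryptochrome genes Cry1 and Cry2, the Rev-erb genes Nr1d1 and Nr1d2, the Dec genes Bhlhe40 and Bhlhe41, and Ciart. They were chosen by name, as members of the negative limb of the clock, with earlier results of these data known. Of the 55487 Ensembl genes listed for each mouse, 10 carry these names. Each name matched 1 gene.

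The study asked whether photobiomodulation therapy (PBMT), an exposure of muscle to 830 nm light, alters gene expression in the tibialis anterior (TA) muscle of resting and exhausted mice. All animals were wild-type male C57BL/6J mice aged 5 to 7 weeks, kept in 12 h of light and 12 h of darkness, and they formed 4 groups of 6, in which sedentary or fatigued mice had received either PBMT or the control handling. PBMT was given under anesthesia with an intensity of 25 mW/cm2 and a dose of 30 J/cm2 over 20 min, and muscle was collected 24 h afterwards, while controls were shaved and anesthetized for the same time with the light off. Fatigued mice ran on a treadmill until exhausted and were dissected right after it, and sedentary mice did not run. Shaving and anesthesia were therefore shared by all 4 groups, and no group received heat or another light as a control. The fatigued mice were sequenced as project 1 and the sedentary mice as project 2, so that exercise state and sequencing project cannot be told apart. The paper states that the run began 24 h after PBMT and that PBMT mice then ran longer than controls. Light and length of the run therefore cannot be told apart in comparisons with fatigued PBMT mice. Run times of single mice were not used here. The labels give no hour of dissection.

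In the clock of mammalian cells, the activators BMAL1 (encoded by Arntl) and CLOCK bind E-box motifs and switch on the genes of their own repressors. PER and CRY proteins return to the nucleus and block BMAL1 and CLOCK, REV-ERB proteins repress Arntl through ROR elements, and DEC proteins and CIART act at the E-boxes. In skeletal muscle this loop times genes of glucose and lipid use, and Per1 also responds directly to glucocorticoids and to cAMP signalling.

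RNA with poly(A) tails from whole muscle was sequenced, and the counts of reads per gene were analysed. Total counts ran from 43271093 to 46904076 in sedentary controls, from 46327516 to 52775844 in sedentary PBMT, from 56792327 to 68726155 in fatigued controls and from 53122528 to 68566029 in fatigued PBMT. The clock repressors had between 222 counts (Ciart) and 9605 counts (Nr1d2) in a mouse, and 10 of 10 passed the filter on low counts in each comparison. Levels are given as CPM, the count scaled to the size of the library, after TMM normalization over the 24 mice. In whole muscle RNA, fewer cells of a type and less RNA per cell cannot be told apart.

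Of 10 muscle fiber markers 10 were expressed, as the labelled tissue would have them, and Myh4, the fastest myosin heavy chain, was the most abundant at a mean of 37924 CPM. A pair of libraries stood apart from their groups. In sedentary control replicate 4, mitochondrially encoded genes took 3.24% of the counts, against 15.53% to 16.96% in the other sedentary controls, and its distance from the group mean over all genes was 0.501 in log2 CPM, against 0.304 to 0.339. Fatigued PBMT replicate 5 lay at 0.509 from its group mean and had the highest summed levels of the fibroblast list (4146 CPM), the macrophage list (70.8 CPM) and the tendon list (865 CPM). Many results are therefore also given without these mice.

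In GENCODE M21, on the mouse build GRCm38, Per1 (ENSMUSG00000020893) lies at chr11:69095217-69109960 on the plus strand, and Per2 (ENSMUSG00000055866) at chr1:91415982-91459324 and Per3 (ENSMUSG00000028957) at chr4:151003652-151044665 on the minus strand. Cry1 (ENSMUSG00000020038, chr10:85131700-85185064) and Cry2 (ENSMUSG00000068742, chr2:92403646-92434043) are on the minus strand, as are Nr1d1 (ENSMUSG00000020889, chr11:98767932-98775333) and Nr1d2 (ENSMUSG00000021775, chr14:18204054-18239127). Bhlhe40 (ENSMUSG00000030103, chr6:108660629-108666925) is on the plus strand, and Bhlhe41 (ENSMUSG00000030256, chr6:145858243-145865558) and Ciart (ENSMUSG00000038550, chr3:95878503-95882251) are on the minus strand. Exons on the opposite strand overlap those of 4 repressors. Nr1d1 shares 263 bases with Thra, the gene of a thyroid hormone receptor, which had a median count of 4381. Cry2 shares 295 bases with D930015M05Rik (median count 0), Bhlhe40 118 bases with 0610040F04Rik (6) and Bhlhe41 1280 bases with Gm43909 (10). The sources used here do not say whether the counting used the strand, so reads of such pairs cannot be told apart.

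Per kilobase of exon, the Rev-erb genes and Bhlhe40 had the highest levels of the family and Per2 and Per3 the lowest. Over the 24 mice the mean level was 32.4 ± 7.03 CPM per kb (SD) for Nr1d1, 27.2 ± 3.98 for Nr1d2 and 22.2 ± 6.76 for Bhlhe40. It was 13.2 ± 3.94 CPM per kb for Per1, 8.53 ± 2.25 for Bhlhe41 and 7.28 ± 2.64 for Cry2. The lower end was formed by Cry1 (3.85 ± 0.314 CPM per kb), Ciart (3.79 ± 1.35), Per3 (2.23 ± 0.351) and Per2 (1.94 ± 0.589). Cry2 lay above Cry1, and Ciart above Per3, in 24 of 24 mice. The other neighbours in this order changed places between mice, with the higher gene ahead in 14 to 19 of the 24 mice. Within groups some of them did separate. Bhlhe40 lay above Per1 without overlap in sedentary controls (18.9 to 25.5 against 14.9 to 18.4 CPM per kb) and in sedentary PBMT (25.6 to 33.9 against 7.39 to 15.5 CPM per kb), and Nr1d1 lay above Nr1d2 in sedentary PBMT (36.0 to 47.0 against 25.5 to 33.2 CPM per kb). Without overlap too, Nr1d2 lay above Bhlhe40 in fatigued controls, Per1 above Bhlhe41 and Per3 above Per2 in sedentary controls, and Bhlhe41 above Cry2 in sedentary PBMT. The mean of Per3 per kb was above that of Per2 in both sedentary groups and below it in both fatigued groups, and Cry1 and Ciart overlapped in all 4 groups.

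**Figure D1:**
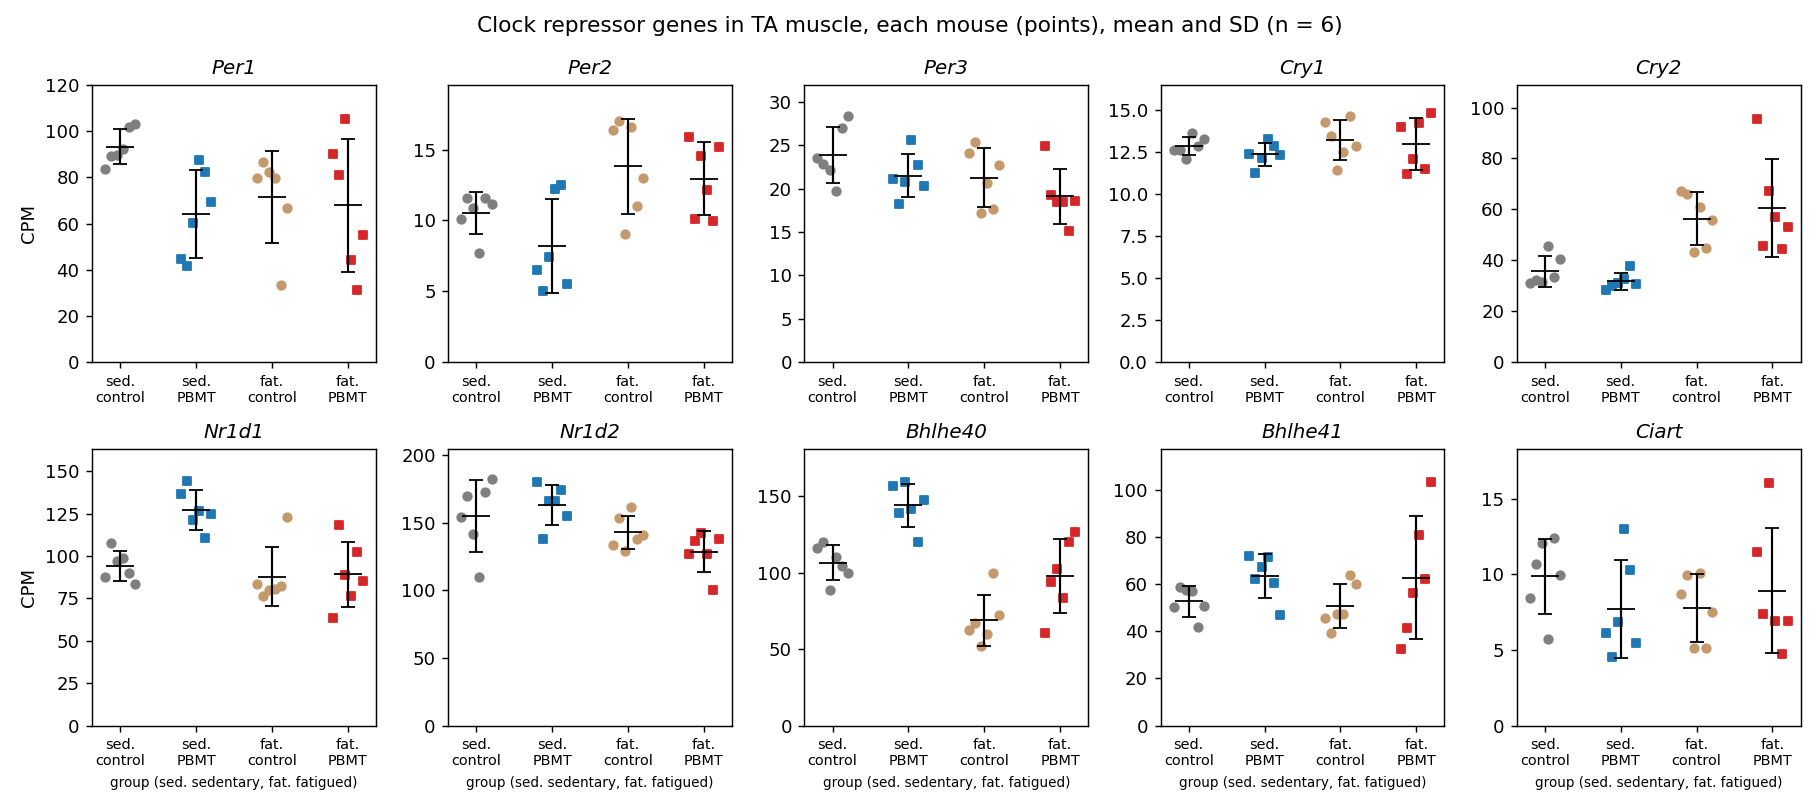
CPM of the 10 clock repressor genes (vertical axes, each starting at 0) in the 4 groups of TA muscle; points are mice, and bars give the mean and SD of 6 mice. In sedentary muscle the PBMT mice lie above the controls without overlap for Nr1d1 and Bhlhe40, and Cry2 is higher in fatigued than in sedentary mice, with overlap among controls.

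How far mice of the same group differed varied among the repressors. Within groups, the SD of log2 CPM was 0.52 for Ciart, 0.49 for Per1 and 0.39 for Per2, against a median of 0.23 over the 15108 genes tested in the 24 mice. Cry1 was at the other end, with an SD of 0.12, below that of most genes (percentile 12.6). Per1 was tight in sedentary controls (SD 0.12) and wide in the other groups (0.45 in sedentary PBMT, 0.52 in fatigued controls and 0.67 in fatigued PBMT).

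The question of whether PBMT altered the clock repressors of resting muscle was addressed by sedentary PBMT against sedentary control. Nr1d1 and Bhlhe40 were the genes whose groups of mice did not overlap, both with higher levels after PBMT, while Per1 was lower in most PBMT mice. By edgeR's quasi-likelihood test with Benjamini-Hochberg adjustment at a threshold of 0.05, 0 of 10 clock repressors passed, and 4 of 14177 genes did (0.0282%), namely Ccn1, Egr1, Cited2 and Nfil3. At an unadjusted p-value under 0.05 there were 4 repressors, Per1, Nr1d1, Bhlhe40 and Bhlhe41, among 1082 genes. DESeq2 called 2 repressors, Nr1d1 and Bhlhe40, among 62 genes. Groups that did not overlap were found for 2 of 10 repressors and for 68 of 14177 genes (0.48%). In size, the differences of the repressors had a median of 0.31 on the log2 scale regardless of sign, against 0.11 over all genes, with 4 higher and 6 lower. This contrast was not tested, since the repressors were chosen with earlier results of these data known. Ciart, Per1 and Per2 also varied more between mice than the median gene.

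Per1, the period gene most readily induced by hormones, had a lowest, median and highest level of 83.8, 90.9 and 103 CPM in sedentary controls and of 41.6, 64.6 and 87.5 CPM in sedentary PBMT. Of the PBMT mice, 5 of 6 lay below the lowest control, with replicates 1 and 2 lowest at 44.6 and 41.6 CPM, and replicate 4 lay among the controls. The log2 fold change was -0.53 (SE 0.16, edgeR p = 0.00383 unadjusted and 0.351 adjusted), and the mean log2 CPM differed by -0.59 (exact permutation test, two-sided unadjusted p = 0.00433). Per2, which encodes a scaffold of the PER-CRY complex, ranged from 7.73 to 11.6 CPM in controls (median 11.0) and from 5.01 to 12.5 CPM after PBMT (median 6.94). The PBMT mice fell on both sides of the controls, with replicates 1, 2, 3 and 6 below the lowest control and replicates 4 and 5 above the highest. Its log2 fold change was -0.35 (SE 0.21, edgeR adjusted p = 0.678). Per3, a period gene that mice can lack and keep their rhythms, ranged from 19.7 to 28.4 CPM in controls and from 18.2 to 25.7 CPM after PBMT, and the groups overlapped (log2 fold change -0.15, SE 0.10).

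The cryptochromes, which carry most of the direct repression of BMAL1 and CLOCK, overlapped between the sedentary groups. Cry1 kept to between 11.3 and 13.7 CPM in the 12 sedentary mice (log2 fold change -0.05, SE 0.068). For Cry2 the lowest, median and highest levels were 30.9, 32.7 and 45.6 CPM in controls and 28.1, 30.8 and 37.6 CPM after PBMT. The highest control value was that of replicate 4, and 4 of 6 PBMT mice lay below the lowest control (log2 fold change -0.16, SE 0.10, edgeR adjusted p = 0.685).

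Nr1d1 encodes REV-ERBα, a heme-binding nuclear receptor that represses Arntl. Its lowest, median and highest levels were 83.8, 93.7 and 108 CPM in sedentary controls and 111, 126 and 145 CPM in sedentary PBMT. All 6 PBMT mice lay above all 6 controls, and the nearest were control replicate 2 and PBMT replicate 5. The level was 1.36 times that of controls (log2 fold change 0.44, SE 0.077, edgeR adjusted p = 0.0562, DESeq2 adjusted p = 1.78e-04), and the exact permutation test gave its smallest possible p of 0.00216. Over the alternatives the adjusted p ran from 1.78e-04 to 0.482. Without sedentary control replicate 4 the edgeR adjusted p was 0.0283, and without sedentary PBMT replicate 5 it was 0.0316. Only these 2 of the 12 fits with a mouse left out passed, and the highest adjusted p of the 12 was 0.231. Thra, its neighbour on the opposite strand, was at 90.8 ± 13.1 CPM in sedentary controls and 91.1 ± 3.74 CPM in sedentary PBMT (SD, n = 6). Nr1d2, which encodes the related REV-ERBβ, ranged from 109.7 to 182 CPM in controls and from 138 to 179.7 CPM after PBMT. Its PBMT mice lay inside the range of the controls (log2 fold change 0.08, SE 0.11), and the sign turned without control replicate 4, the lowest of them (-0.01).

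Bhlhe40 encodes DEC1, a helix-loop-helix repressor that competes with BMAL1 and CLOCK for E-boxes. It had a lowest, median and highest level of 88.7, 107 and 119.9 CPM in sedentary controls and of 120.3, 144 and 159 CPM in sedentary PBMT. The groups met without overlapping, since PBMT replicate 5 (120.3 CPM) was just above control replicate 2 (119.9 CPM). The level was 1.36 times that of controls (log2 fold change 0.44, SE 0.085, edgeR adjusted p = 0.0896, DESeq2 adjusted p = 0.00143), with an exact permutation p of 0.00216. Its adjusted p ran from 0.00143 to 0.586 over the alternatives, and was 0.0616 by edgeR without control replicate 4 and 0.0316 without PBMT replicate 5. The latter was the 1 of 12 fits with a mouse left out that passed, and the highest adjusted p of the 12 was 0.251. Bhlhe41, which encodes the related DEC2, ranged from 41.8 to 58.7 CPM in controls (median 53.8) and from 46.8 to 72.0 CPM after PBMT (median 64.7). Of the PBMT mice 5 of 6 lay above the highest control, and replicate 6 lay among the controls (log2 fold change 0.27, SE 0.10, edgeR adjusted p = 0.598, exact permutation p = 0.0606).

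Ciart encodes a repressor that binds BMAL1 and CLOCK at E-boxes. It ranged from 5.75 to 12.4 CPM in sedentary controls (median 10.3) and from 4.54 to 13.0 CPM after PBMT (median 6.49). The order of the PBMT mice resembled that of Per2, with replicates 4 and 5 high and replicate 2 lowest. The groups overlapped (log2 fold change -0.35, SE 0.25, edgeR adjusted p = 0.707).

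Without sedentary control replicate 4, Per1 was at a log2 fold change of -0.54, Per2 at -0.43, Per3 at -0.20, Cry2 at -0.08, Bhlhe41 at 0.29 and Ciart at -0.47. None of these 6 passed the edgeR threshold in that fit (adjusted p of 0.412 or more). Markers of macrophages were lower after PBMT in 5 of 5 genes (median log2 fold change -0.55), of which edgeR called 0, with 1 at an unadjusted p-value under 0.05, and DESeq2 0. Their summed level was 25.9 ± 9.28 CPM in controls and 18.0 ± 4.09 CPM after PBMT (SD, n = 6), with Mrc1 the most abundant gene. Fibroblast markers were lower in 6 of 6 genes (median -0.18), again with 0 called by edgeR, 1 at an unadjusted p-value under 0.05 and 0 called by DESeq2. Their sums were 1407 ± 245 and 1130.1 ± 288 CPM, with Gsn the most abundant gene. Schwann cell markers were higher in 5 of 5 genes (median 0.19), with 0 called by edgeR or DESeq2 and 0 at an unadjusted p-value under 0.05. Of the other marker lists edgeR and DESeq2 called 0 genes, and Pax7 (0.46), Kdr (0.45) and Esam (-0.32) had an unadjusted p-value under 0.05. The part of these cells in the levels of the clock repressors was not tested.

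In fatigued muscle the same exposure, read here together with the length of the run, gave no gene called by edgeR. By edgeR, 0 of 10 repressors and 0 of 14574 genes (0%) passed, and the smallest adjusted p was 0.9998. At an unadjusted p-value under 0.05 there were 230 genes, Bhlhe40 the 1 repressor among them, and DESeq2 called 2 genes, with 0 repressors. Groups did not overlap for 0 of 10 repressors and for 4 of 14574 genes (0.0274%).

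Bhlhe40 had a lowest, median and highest level of 51.9, 64.9 and 99.8 CPM in fatigued controls and of 60.3, 98.2 and 126 CPM in fatigued PBMT. The groups overlapped, with control replicate 5 as high as the PBMT mice and PBMT replicate 1 as low as the controls, and 3 of 6 PBMT mice lay above the highest control. Its log2 fold change was 0.51 (SE 0.18, edgeR adjusted p = 0.9998, exact permutation p = 0.0433), and 0.44 without PBMT replicate 5. Nr1d1 was at 76.6, 81.4 and 123 CPM in controls and at 63.7, 87.3 and 118 CPM after PBMT. Its groups overlapped, and control replicate 6 was far above the other controls (log2 fold change 0.02, SE 0.15, and -0.02 without PBMT replicate 5). Bhlhe41 ranged widely after PBMT, from 32.6 to 103 CPM, around the controls at 39.4 to 64.0 CPM (log2 fold change 0.31, SE 0.25).

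Per1 spanned 33.3 to 86.7 CPM in fatigued controls and 31.2 to 105 CPM in fatigued PBMT. The lowest control was replicate 5, and in the PBMT group replicates 4 and 5 were low and replicates 1 and 3 high. The log2 fold change of Per1 was -0.08 (SE 0.30) and turned to 0.07 without PBMT replicate 5. Those of Per2 (-0.09), Per3 (-0.15), Cry1 (-0.03), Cry2 (0.10), Nr1d2 (-0.15) and Ciart (0.20) were each less than 2 standard errors from 0. Without PBMT replicate 5 they were -0.03, -0.10, 0.01, 0.17, -0.09 and 0.33.

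Of the cell type markers edgeR and DESeq2 called 0 in fatigued muscle after PBMT, and 0 had an unadjusted p-value under 0.05. Fibroblast markers were higher in 6 of 6 genes (median log2 fold change 0.14), tendon markers in 5 of 5 (0.26) and macrophage markers in 4 of 5 (0.22), lists for which PBMT replicate 5 had the highest sums. Schwann cell markers were lower in 5 of 5 genes (-0.16).

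**Figure D2:**
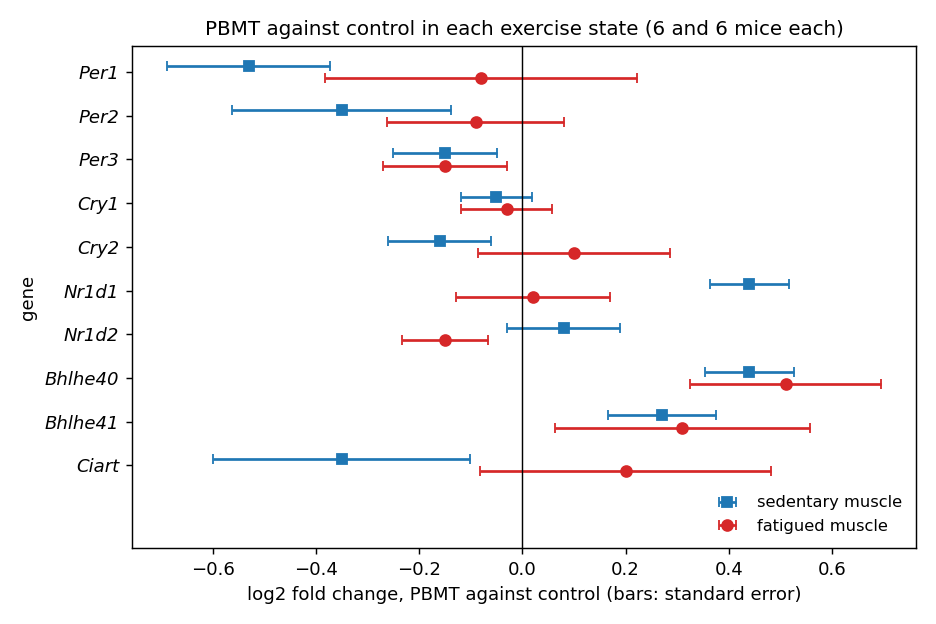
Log2 fold change of each clock repressor gene, PBMT against control, in sedentary and in fatigued muscle (horizontal axis; bars are standard errors, 6 mice against 6 in each). Bhlhe40 is at 0.44 and 0.51, and Nr1d1 is at 0.44 in sedentary and 0.02 in fatigued muscle.

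Whether PBMT acted differently in the 2 exercise states was tested as an interaction over the 24 mice. By edgeR 0 of 10 repressors passed, and 1 of 15108 genes did (0.00662%), which was Nfil3. Nr1d1 had an unadjusted p-value under 0.05, with a log2 difference of -0.41 between the PBMT effect in fatigued and that in sedentary muscle (SE 0.17, edgeR adjusted p = 0.946). It was 1 of 665 genes below that level, and DESeq2 called 0 repressors and 3 genes. For Bhlhe40 the estimate was 0.07 (SE 0.21), and for Per1 it was 0.46 (SE 0.36). The PBMT effect on a repressor is thus not shown to differ between sedentary and fatigued muscle.

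Fatigued against sedentary muscle gave more called repressors, read here together with the sequencing project. The median absolute log2 fold change of the 10 was 0.26 among controls and 0.28 among PBMT mice, against 0.31 for PBMT in sedentary muscle. Over all genes these values were 0.19, 0.22 and 0.11, a contrast with the limits given above. Among controls, Cry2 was higher and Bhlhe40 lower in the fatigued mice. By edgeR 1 of 10 repressors was called higher, where 1375 of 15108 genes were (9.1%), and 1 of 10 lower, where 1434 genes were (9.49%). Among PBMT mice 2 of 10 were called higher, Per2 and Cry2, beside 2135 genes (14.1%). There 3 of 10 were called lower, Nr1d1, Nr1d2 and Bhlhe40, beside 1916 genes (12.7%). Among controls the members' counts are near the shares of all genes. These comparisons share their groups with the PBMT comparisons above, and the values are given side by side.

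Cry2 was at 43.2, 58.4 and 67.3 CPM (lowest, median and highest) in fatigued controls, against 30.9, 32.7 and 45.6 CPM in sedentary controls. Of the fatigued controls 4 of 6 lay above the highest sedentary control, which was replicate 4. Cry2 rose by a log2 fold change of 0.66 (SE 0.16, edgeR adjusted p = 0.00428), and by 0.74 without sedentary control replicate 4 (adjusted p = 0.00189 by edgeR). Among PBMT mice it was at 44.3, 55.0 and 95.6 CPM in fatigued and 28.1, 30.8 and 37.6 CPM in sedentary muscle. The 6 fatigued mice all lay above the 6 sedentary mice, a separation shared by 1689 of 15108 genes (11.2%), and replicate 1 was the highest. The log2 fold change was 0.93 (SE 0.16, edgeR adjusted p = 1.07e-04), and 1.00 without fatigued PBMT replicate 5. Cry1 stayed between 11.2 and 14.8 CPM in the 24 mice, with log2 fold changes of 0.04 and 0.07 (SE 0.076 in each).

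Per2 was at 9.01, 14.7 and 17.0 CPM in fatigued controls and at 9.94, 13.3 and 15.9 CPM in fatigued PBMT. Among PBMT mice 3 of 6 fatigued mice lay above the highest sedentary mouse, and no fatigued mouse lay below the lowest sedentary one. Per2 rose there by 0.66 on the log2 scale (SE 0.21, edgeR adjusted p = 0.0208), a call that was lost without sedentary PBMT replicate 1, 2 or 6 (edgeR adjusted p = 0.0534, 0.0505 and 0.0522). Its adjusted p ran from 0.00519 to 0.0553 over the alternatives. Among controls its log2 fold change was 0.40 (SE 0.21, edgeR adjusted p = 0.191). Per1 in fatigued controls was at 33.3, 79.8 and 86.7 CPM, with 5 of 6 mice below the lowest sedentary control. Its log2 fold change of -0.38 missed the threshold (SE 0.26, edgeR adjusted p = 0.317), although the exact permutation test gave p = 0.00433. Without fatigued control replicate 5 the log2 fold change was -0.24 (edgeR adjusted p = 0.538). Among PBMT mice Per1 was at 0.08 (SE 0.26), and at 0.22 without fatigued PBMT replicate 5. Per3 was lower by a log2 fold change of -0.17 in both comparisons (SE 0.11 in each), with adjusted p of 0.312 and 0.285 by edgeR. It was -0.22 among controls without sedentary control replicate 4 and -0.11 among PBMT mice without fatigued PBMT replicate 5.

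The Rev-erb genes fell in the PBMT comparison. Nr1d1 had a log2 fold change of -0.51 there (SE 0.12, edgeR adjusted p = 0.00258), and 5 of 6 fatigued PBMT mice lay below the lowest sedentary PBMT mouse, replicate 2 (118 CPM) being the exception. Among controls it was at -0.10 (SE 0.12, edgeR adjusted p = 0.596), and at -0.21 without fatigued control replicate 6 (edgeR adjusted p = 0.192). Nr1d2 was at 129, 139 and 162 CPM in fatigued controls and at 100.2, 132 and 143 CPM in fatigued PBMT, the lowest being replicate 5. Among PBMT mice its log2 fold change was -0.34 (SE 0.10, edgeR adjusted p = 0.0121) with 4 of 6 fatigued mice below the lowest sedentary mouse, and -0.29 without replicate 5 (edgeR adjusted p = 0.0371). Among controls it was -0.12 (SE 0.10, edgeR adjusted p = 0.436), and -0.20 without sedentary control replicate 4 (edgeR adjusted p = 0.0855).

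Bhlhe40 was lower in fatigued muscle in both comparisons. Among controls the log2 fold change was -0.63 (SE 0.15, edgeR adjusted p = 0.00387) and 5 of 6 fatigued mice lay below the lowest sedentary mouse, replicate 5 at 99.8 CPM being the exception. Among PBMT mice it was -0.56 (SE 0.15, edgeR adjusted p = 0.00597), again with 5 of 6 mice below, replicate 6 at 126 CPM being the exception. Bhlhe41 did not follow it, at -0.06 and -0.01 (SE 0.20 in each). Ciart was at 5.15, 8.11 and 10.1 CPM in fatigued controls and at 4.76, 7.16 and 16.1 CPM in fatigued PBMT. The groups overlapped with those of sedentary mice, and its log2 fold changes of -0.35 and 0.21 had standard errors of 0.29. They were -0.47 without sedentary control replicate 4 and 0.33 without fatigued PBMT replicate 5.

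Other values moved with exercise state and project too. Mitochondrially encoded genes took 10.52% to 12.85% of the counts in fatigued mice and 13.85% to 17.09% in sedentary mice other than control replicate 4. Macrophage markers were called higher by edgeR in 5 of 5 genes among PBMT mice and in 0 of 5 among controls, where 1 had an unadjusted p-value under 0.05 and DESeq2 called 0, and their sum was 34.6 ± 7.55 CPM in fatigued controls and 38.5 ± 18.0 CPM in fatigued PBMT (SD, n = 6). Fibroblast markers were called higher in 5 of 6 genes among PBMT mice and in 0 of 6 among controls, where 2 had an unadjusted p-value under 0.05 and DESeq2 called 1, with sums of 1969 ± 396 CPM and 2220.0 ± 984 CPM. Tendon markers were called higher in 3 of 5 and 1 of 5 genes, with Fmod the most abundant, and muscle fiber markers in 3 of 10 and 5 of 10. Of the adipocyte markers 4 of 5 were higher in both comparisons (median log2 fold change 0.77 among controls and 0.48 among PBMT mice). The other was Car3, called lower in both (-0.63 and -0.48, edgeR adjusted p = 0.00101 and 0.00614), and Cidec was called higher by edgeR among PBMT mice (1.56). Car3 was at a mean of 2436 CPM in sedentary controls, where Adipoq was at 3.75 CPM, so its fall is not read here as one of adipocytes. Among PBMT mice 4 of 5 satellite cell markers were higher (median 0.28), and edgeR called the other, Pax7, lower (-0.67). There 4 of 5 endothelial markers were higher (median 0.17), with Pecam1 (0.40) and Esam (0.37) called by edgeR, and Krt10, the 1 of 5 keratinocyte markers tested, was called lower (-1.52). In sedentary muscle Krt10 was at 0.97 after PBMT (edgeR adjusted p = 0.662). Among sedentary PBMT mice the summed keratinocyte list was highest in replicates 4 and 2, at 25.6 and 9.36 CPM. Schwann cell and erythrocyte markers had 0 called by edgeR and DESeq2 in both comparisons, with 2 erythrocyte markers at an unadjusted p-value under 0.05 among controls. No gene of these lists was at 3 counts or fewer in every mouse. Their part in the levels of the clock repressors was not tested.

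The repressors were then compared with Arntl, the gene of their activator BMAL1, across the 24 mice, with each mouse expressed relative to its group mean in log2 CPM. Mice with more Arntl than their group had less Per3, Ciart, Per2 and Cry2. How many of all genes tested varied as strongly with Arntl was not computed, so the repressors are not shown to stand out. Tests were permutations within groups (100000 draws, two-sided), with Benjamini-Hochberg adjustment over the 10 correlations computed. For Per3 Pearson's r was -0.76 (permutation p = 2.8e-04, adjusted 0.0028) and Spearman's rho -0.71 (permutation p = 8.6e-04, adjusted 0.00287). For Ciart r was -0.64 (permutation p = 0.00137, adjusted 0.0046) and rho -0.75 (permutation p = 1.1e-04, adjusted 0.0011). For Per2 r was -0.61 (permutation p = 0.00138, adjusted 0.0046) and rho -0.69 (permutation p = 8.1e-04, adjusted 0.00287). The sign was the same within both projects, where no test was made, with r of -0.47 in the 12 sedentary and -0.89 in the 12 fatigued mice for Per3, -0.69 and -0.66 for Ciart, and -0.72 and -0.65 for Per2. Without sedentary control replicate 4 the sedentary values were -0.34, -0.62 and -0.68. Leaving out the mice farthest from the median of Arntl, fatigued control replicates 2 and 3, gave r of -0.70, -0.62 and -0.54.

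Cry2 gave r of -0.63 (permutation p = 0.00524, adjusted 0.0131) and rho of -0.56 (permutation p = 0.0116, adjusted 0.029), and r of -0.57 without the farthest mice. Within the fatigued project its r was -0.78 and within the sedentary project -0.05. Without sedentary control replicate 4 the sedentary value was -0.46 and that over all mice -0.73. A difference between the projects was not tested. Per1 was at r of -0.49 (permutation p = 0.0439, adjusted 0.0878) and rho of -0.48 (permutation p = 0.024, adjusted 0.048), so that rho passed the adjustment and r did not, with r of -0.59 without the farthest mice and of -0.29 and -0.54 within the sedentary and fatigued projects. The other repressors passed with neither measure (adjusted 0.11 or more for r and 0.256 or more for rho). Nr1d2 had r of -0.32 (permutation p = 0.0992) and rho of -0.31 (permutation p = 0.154), Nr1d1 0.14 and 0.07 (permutation p = 0.611 and 0.768), and Cry1 -0.12 and -0.07 (permutation p = 0.643 and 0.773). The Dec genes had the opposite sign, with r of 0.38 and rho of 0.28 for Bhlhe40 (permutation p = 0.148 and 0.226) and r of 0.43 and rho of 0.23 for Bhlhe41 (permutation p = 0.0659 and 0.33). For Bhlhe41 the sign itself differed between the projects, at -0.58 in sedentary and 0.65 in fatigued mice.

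**Figure D3:**
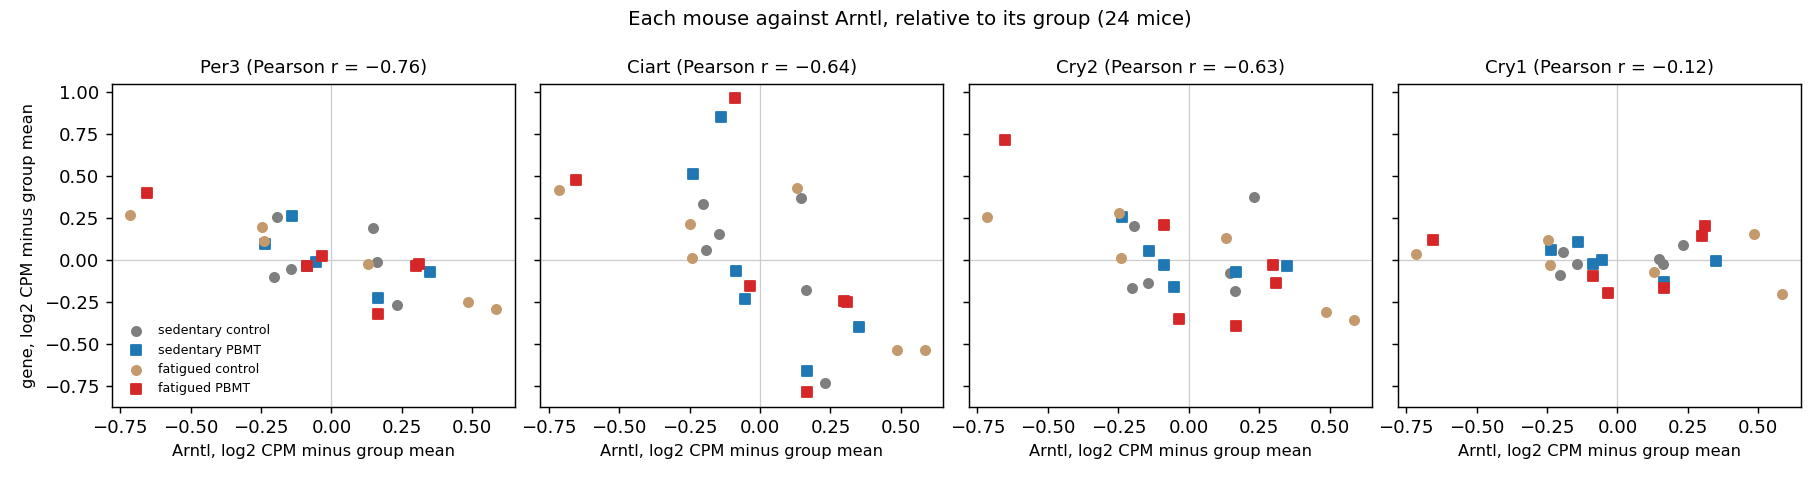
Log2 CPM of Per3, Ciart, Cry2 and Cry1 (vertical axes) against that of Arntl (horizontal axes), each minus the mean of the mouse's group; points are the 24 mice. Pearson's r is -0.76, -0.64, -0.63 and -0.12.

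Among the repressors themselves, 45 pairs were compared in the same way, a comparison added after the data were seen. By Pearson's r 10 pairs passed the adjustment over the 45, and 10 of these 10 were positive. By Spearman's rho 12 pairs passed, of which 11 were positive and 1 negative. The share of pairs of other genes that would pass was not computed, so these counts are given as a description. The closest pair was Per2 and Ciart, with r of 0.85 and rho of 0.87, where the permutation p of 1e-05 is the smallest that 100000 draws can give (adjusted 4.5e-04 for each). Within the sedentary project r was 0.94 and within the fatigued project 0.78, and without sedentary PBMT replicates 4 and 5, the farthest mice, it was 0.81. Per1 and Ciart followed at r of 0.74 (permutation p = 8e-05, adjusted 0.0012) and rho of 0.71 (permutation p = 7.1e-04, adjusted 0.00799), with r of 0.70 and 0.79 within the projects and 0.68 without fatigued control and fatigued PBMT replicate 5. The pair that passed with a negative rho was Per1 and Bhlhe41, at rho of -0.63 (permutation p = 0.00615, adjusted 0.0317) and r of -0.53 (permutation p = 0.0535, adjusted 0.115), with r of -0.21 within the sedentary and -0.61 within the fatigued project and -0.55 without these same mice. The lowest r was that of Per1 and Bhlhe40, at r of -0.58 (permutation p = 0.0235, adjusted 0.0684) and rho of -0.50 (permutation p = 0.026, adjusted 0.0781), which moved to an r of -0.29 without the same mice.

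Each repressor was also compared with the other 15107 genes tested over the 24 mice, relative to group means, and the gene with the highest and that with the lowest Pearson's r are named as a description. These values were not computed again without distant mice. Per1 was most like Tsc22d3, a gene induced by glucocorticoids, at r of 0.91, with Acvr1b next at 0.91, and least like Tmem173 at -0.91. In fatigued controls and in fatigued PBMT mice Tsc22d3 was lowest in replicate 5 (187.7 and 190.1 CPM), the mouse with the least Per1 in each group. In sedentary PBMT mice Tsc22d3 ranged from 165 to 275 CPM and was lowest in replicate 2 and next in replicate 1, the mice with the least Per1. Ciart and Per2 were each other's most alike gene at 0.85, and least like 5430405H02Rik (-0.78) and Ntn4 (-0.81). Per3 was most like Mia2 (0.87) and least like Gfra2 (-0.84). Cry1 was most like Alpk2 (0.89) and least like Itm2a (-0.85), and Cry2 most like Ercc5 (0.88) and least like Hacd4 (-0.86). Nr1d1 had weaker extremes, with Eif2ak3 at 0.78 and Tmem120b at -0.73. For Nr1d2 they were Rb1cc1 at 0.94 and Ptms at -0.89. Sedentary control replicate 4 and fatigued PBMT replicate 5 were each the lowest of their group for both Nr1d2 and Rb1cc1. For Bhlhe40 they were Fn3krp (0.83) and Ywhae (-0.87), and for Bhlhe41 Dot1l (0.87) and Ccrl2 (-0.87).

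The partners of the repressors were taken from lists. Of the clock activators, 6 of 7 were tested, and 0 were called by edgeR in either PBMT comparison. In sedentary muscle 6 of 6 were higher after PBMT (median log2 fold change 0.37, and -0.002 over all genes). There 3 had an unadjusted p-value under 0.05 and DESeq2 called 1, and in fatigued muscle these counts were 0 and 0. In fatigued muscle 5 of 6 were higher after PBMT (median 0.28, and 0.004 over all genes). Arntl was at 6.11, 7.08 and 8.28 CPM in sedentary controls and at 8.62, 9.68 and 13.0 CPM in sedentary PBMT. The groups of mice did not overlap for Arntl, and its log2 fold change of 0.54 (SE 0.12) had an edgeR adjusted p of 0.144. In fatigued muscle it was 0.44 (SE 0.22, edgeR adjusted p = 0.9998). Between fatigued and sedentary PBMT mice edgeR called 1 activator and DESeq2 2, and the edgeR call was Clock, which was lower in fatigued mice (-0.58, SE 0.14, edgeR adjusted p = 0.00329). Among controls edgeR and DESeq2 called 0 activators, 2 had an unadjusted p-value under 0.05, and Clock was at -0.35 (edgeR adjusted p = 0.078).

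Nfil3 encodes a repressor at D-boxes, the motif through which Dbp, Tef and Hlf activate Per genes, and of these 4 genes it was the one called in a PBMT comparison. It was at 28.2, 30.8 and 36.5 CPM in sedentary controls and at 13.1, 15.9 and 20.9 CPM in sedentary PBMT, without overlap (log2 fold change -0.96, SE 0.11, edgeR adjusted p = 9.25e-04). In fatigued muscle it was at 0.14 (edgeR adjusted p = 0.9998), where none of the 4 genes was called by edgeR or DESeq2 and 0 had an unadjusted p-value under 0.05, and the interaction was 1.11 (SE 0.16, edgeR adjusted p = 0.0037). Fatigued mice had more Nfil3 among controls (0.89, edgeR adjusted p = 7.47e-06) and among PBMT mice (2.00, edgeR adjusted p = 1.97e-11). Dbp fell in both, at -0.62 and -0.52 (edgeR adjusted p = 0.00669 and 0.0141).

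Of the kinases, ligases and the deubiquitinase that act on PER, CRY and REV-ERB proteins, 10 of 11 were tested and 0 were called in either PBMT comparison by edgeR or DESeq2, with 1 gene at an unadjusted p-value under 0.05 in sedentary and 0 in fatigued muscle. The genes with the smallest p there were Usp2 (-0.37, sedentary) and Fbxw11 (0.07, fatigued). Ube3a was called lower in fatigued than in sedentary muscle among controls and among PBMT mice (log2 fold change -0.30 and -0.49, edgeR adjusted p = 0.0408 and 9.2e-04), and Usp2 was called higher among PBMT mice (0.66, edgeR adjusted p = 0.00188). Of the 11 corepressor partners, 0 were called in the PBMT comparisons by edgeR or DESeq2, where 1 and 0 had an unadjusted p-value under 0.05. Ncor1 had the smallest p in sedentary (0.18) and Nono in fatigued muscle (-0.07). In fatigued muscle Sin3a fell among controls and among PBMT mice (-0.33 and -0.48, edgeR adjusted p = 0.00478 and 6.41e-05). Nono was called higher in both comparisons (0.23 and 0.17) and Tbl1xr1 among controls (0.36), with edgeR adjusted p of 0.00622, 0.0295 and 0.00721.

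Of 16 muscle genes under clock control, 0 were called by edgeR in either PBMT comparison, with 6 and 1 at an unadjusted p-value under 0.05 and 2 and 0 called by DESeq2 in sedentary and fatigued muscle. Fatigued against sedentary, edgeR called 9.1% of all genes higher and 9.49% lower among controls, and 14.1% and 12.7% among PBMT mice. Of the 16 muscle genes, 3 were called higher among controls, and 6 higher and 1 lower among PBMT mice. Trim63, a ubiquitin ligase of muscle atrophy, was called in both and was at 2.17 among PBMT mice (edgeR adjusted p = 4.97e-05 among controls and 6.61e-07), and Por at 0.38 and 0.58 (edgeR adjusted p = 0.0344 and 0.00129). Tars was called among controls (0.21), and Ucp3 (1.18) and Ppp1r3c (1.15) among PBMT mice, with edgeR adjusted p of 0.0181, 6.8e-04 and 5.36e-05. Coq10b had the smallest p in the sedentary PBMT comparison (-0.50, edgeR adjusted p = 0.275) and Trim63 in the fatigued (0.39).

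Inducers of Per1 outside the clock were described by 3 lists. Of 14 glucocorticoid-induced genes, 11 were lower after PBMT in sedentary muscle and 13 higher in fatigued muscle. Over all genes, 49.6% were higher in sedentary and 52.0% in fatigued muscle, and the direction of the list was not tested. Called by edgeR were 0 in both, with 3 and 0 at an unadjusted p-value under 0.05 and 1 and 0 called by DESeq2. Zbtb16 had the smallest p in sedentary muscle (-0.44, edgeR adjusted p = 0.168) and Mt1 in fatigued muscle (0.55). Fatigued against sedentary, 5 were called higher and 4 lower among controls, and 5 higher and 2 lower among PBMT mice. The shares of all genes are those given above for the muscle genes, here and for the lists below. The metallothionein gene Mt2 was at 1.96 and 3.24 (edgeR adjusted p = 0.00131 and 7.62e-06), Mt1 at 1.66 and 2.79 (edgeR adjusted p = 1.19e-04 and 1.83e-07) and Zbtb16 at 0.90 and 1.65 (edgeR adjusted p = 6.96e-04 and 3.33e-07). Sgk1 fell among controls (-0.66) and Fkbp5 rose among PBMT mice (0.95), with edgeR adjusted p of 0.00101 and 1.84e-04. Mean Sgk1 among PBMT mice was 204 CPM in sedentary and 147 CPM in fatigued muscle, and mean Fkbp5 among controls 71.4 and 123 CPM.

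Of 13 cAMP-responsive and immediate early genes, Egr1 was called in sedentary muscle (2.98, SE 0.38, edgeR adjusted p = 0.0139), where 5 had an unadjusted p-value under 0.05 and DESeq2 called 3. In fatigued muscle 0 were called and 0 had an unadjusted p-value under 0.05, with 0 called by DESeq2 and Egr1 at 0.71. Fatigued mice had 9 of 13 called higher among controls and 8 of 13 among PBMT mice. Atf3 was at 4.28 and 5.00 (edgeR adjusted p = 5.5e-07 and 3.95e-08), Nr4a3 at 4.75 and 3.95 (edgeR adjusted p = 4.71e-05 and 1.03e-04) and Sik1 at 1.43 and 2.45 (edgeR adjusted p = 0.00114 and 3.24e-06). Egr1 rose among controls (2.93) and Nr4a2 among PBMT mice (2.80), with edgeR adjusted p of 0.00141 and 1.44e-04. Mean Egr1 among PBMT mice was 17.7 CPM in sedentary and 28.2 CPM in fatigued muscle, and mean Nr4a2 among controls 1.15 and 4.95 CPM. Of 9 heat shock and cold-inducible genes, 7 were called higher in both fatigued comparisons, and 0 in either PBMT comparison by edgeR, DESeq2 or an unadjusted p-value under 0.05. Dnajb1 had the smallest p in the sedentary (-0.23) and Hspb1 in the fatigued PBMT comparison (0.21). In the fatigued comparisons Hsp90aa1 was at 1.03 and 0.95, Hspb1 at 1.08 and 1.36, Hsph1 at 0.70 and 0.70, and Hspa8 at 0.66 and 0.69 (edgeR adjusted p of 1.04e-04 or less). In the interaction, edgeR and DESeq2 called 0 genes of these lists other than that of Nfil3, with 7 at an unadjusted p-value under 0.05. These 7 were muscle genes under clock control (2), glucocorticoid-induced genes (3) and cAMP-responsive and immediate early genes (2). The gene with the smallest p in each list, whether or not under 0.05, was Clock (-0.23) of the activators, and in the other lists Csnk1e (0.17), Sin3a (-0.16), Ppp1r3c (0.72), Zbtb16 (0.75), Egr1 (-2.26) and Rbm3 (0.20).

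Ciart varied with Per1, Per2, Per3 and Nr1d2 across mice. Separately, the windows around the transcription starts were searched for clock motifs, and a relation of motifs to this covariation was not tested. RefSeq promoter windows, from 250 bases before to 50 bases after a start, were at hand for 8 of the 10 genes, all but Per2 and Bhlhe40 (9 windows, with 2 for Per1), in build GRCm38.p6. Both strands were searched. The E-box CACGTG was found in 4 of the 9 windows (Ciart, Cry1, Per1 and Bhlhe41), against 7.15% of 32851 windows of all genes. Its variant CACGTT was found in 3 (Cry1, Cry2 and Nr1d1; 4.68% of all windows), the D-box TTATGTAA in 1 (Per3; 0.938%) and the ROR and REV-ERB motif AGGTCA in 2 (Per1 and Nr1d2; 16.3%). The D-box TTACGTAA (0.119% of all windows) and the cAMP response element TGACGTCA (1.79%) were in 0 of the 9 windows. The matches found did not overlap each other. A match describes letters only, and no binding was measured here.

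The stretches below are upstream of the start, written 5′ to 3′ on the strand of the gene with the motifs in capitals, and are shown since each holds 2 or more of the matches. In GENCODE none of the 4 overlaps an exon. The Ciart stretch, at chr3:95882255-95882356 on the minus strand, holds 3 E-boxes and lies within C920021L13Rik, an antisense gene, outside its exons. The Per3 stretch, at chr4:151044804-151044882 on the minus strand, holds the D-box in 2 copies and lies within Camta1, outside its exons. The Cry1 stretch, at chr10:85185097-85185145 on the minus strand and outside annotated genes, holds the variant (as AACGTG) and then the E-box. The Per1 stretch, at chr11:69098771-69098829 on the plus strand, lies within Per1 as annotated from its longer transcripts, outside exons, and holds the E-box and then the ROR and REV-ERB motif (as TGACCT). Relative to the start, the stretches run from -128 to -27 (Ciart), -217 to -139 (Per3), -91 to -43 (Cry1) and -178 to -120 (Per1).
Ciart: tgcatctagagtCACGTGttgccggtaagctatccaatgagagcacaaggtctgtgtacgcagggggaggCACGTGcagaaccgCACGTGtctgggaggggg
Per3: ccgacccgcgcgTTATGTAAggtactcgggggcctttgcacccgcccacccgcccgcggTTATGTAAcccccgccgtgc
Cry1: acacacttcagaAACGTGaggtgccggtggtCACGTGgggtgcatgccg
Per1: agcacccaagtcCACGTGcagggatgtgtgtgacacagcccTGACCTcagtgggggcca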

How the data were processed

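RNA from TA muscle of 24 mice, 6 in each of 4 groups, was sequenced from poly(A)-selected directional libraries. The groups were taken from the labels. The authors deposited raw counts, whole numbers of reads for each Ensembl gene and mouse, neither normalized nor pooled. Per the labels, the submitters' processing notes name Trimmomatic, STAR 2.7.1a, Picard 2.20.4, StringTie 2.0.4, featureCounts 1.6.0 and HTSeq and the build GRCm38. The strand setting and annotation of the counting are not given in the sources used here. Of the 55487 identifiers, 55227 matched GENCODE M21, from which symbols, coordinates and exon lengths were taken. No pair of the 24 libraries agreed within sampling noise.

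Counts were fitted in R 4.3.3 with edgeR 4.0.16 (TMM, filterByExpr with a minimum count of 10, robust quasi-likelihood tests, two-sided, with a threshold of 0.05 on p adjusted by Benjamini-Hochberg over the genes that passed). PBMT was compared with control within each project (12 mice), and the interaction and fatigued against sedentary in all 24 mice. The median log2 fold change over all genes lay between -0.012 and 0.017 in the 5 comparisons. For single genes an exact permutation test of the difference in mean log2 CPM (prior count 2) went through the 924 arrangements of 6 mice and 6, two-sided. Its p-values were not adjusted over genes. The standard error of a log2 fold change is its size divided by the square root of the F statistic. The edgeR fits were tested on simulated data. Each repressor had at least 222 counts in each mouse.

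Alternatives were the size factors of DESeq2, no filter on low counts, DESeq2 1.42.0, the replicate number as a block, all 24 mice in 1 model, and leaving out each mouse in turn. The members and the gene lists were chosen with earlier results of these data known. Named in the text are all members, from each list the called genes with the smallest p (up to 4 in a comparison, or 1 where none was called), and for each member the genes with the highest and the lowest correlation. Some genes that this rule names are not reported here. Ccn1, Cited2, the genes that overlap a repressor or its promoter, the cell type markers named and the pairs of repressors compared fall outside this rule and were chosen after their values were seen. Promoter sequences are from RefSeq.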

Additional observations from a re-analysis of the deposited data

Results flagged for a closer look

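In each group of 6 mice, the highest and the lowest log2 CPM of each repressor were compared with the other 5 mice by Dixon's ratio, with its 95% critical value. Of 40 groups 4 held a mouse past it, where chance gives about 1 in 20. Per1 was far below its group in fatigued control replicate 5, at 5.06 in log2 CPM (33.3 CPM, against 66.9 to 86.7 CPM in the others). Per2 was far below its group in sedentary control replicate 4, at 2.96 (7.73 CPM, against 10.1 to 11.6 CPM), the mouse with the low share of mitochondrially encoded counts. Nr1d1 was far above its group in fatigued control replicate 6, at 6.94 (123 CPM, against 76.6 to 83.8 CPM). Nr1d2 was far below its group in fatigued PBMT replicate 5, at 6.65 (100.2 CPM, against 126 to 143 CPM), the mouse with the highest fibroblast, macrophage and tendon markers. The part of these features of the libraries in the levels was not tested.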

How the results depend on the processing

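The number of repressors called in sedentary PBMT against control depended on the processing. With no filter on low counts 2 repressors and 16 genes were called by edgeR and with DESeq2 2 and 62, in place of 0 and 4, and 1 model of all 24 mice called 1 gene. Leaving out 1 mouse gave 0 to 2 repressors and 2 to 20 genes, and the highest counts came without PBMT replicate 5; without control replicate 4 there were 1 and 18. DESeq2 called 2 genes in fatigued muscle (0 by edgeR) and 3 in the interaction (1 by edgeR; 1 to 3 with a mouse left out). The called repressors of the fatigued against sedentary comparisons kept their direction in each alternative and their calls in all but those of Per2, which was lost with no filter (0.67, edgeR adjusted p = 0.0553; range over its alternatives 0.00519 to 0.0553) and in 3 of 12 fits with a mouse left out.

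The sign turned for small differences that had not passed. Leaving out 1 mouse, the log2 fold change ranged in sedentary muscle for Nr1d2 from -0.01 to 0.12, and in fatigued muscle for Per1 from -0.24 to 0.07, Cry1 from -0.07 to 0.01, Cry2 from -0.08 to 0.17, Nr1d1 from -0.07 to 0.14 and Ciart from -0.05 to 0.33. For the interaction it ranged for Per3 from -0.09 to 0.06, Cry1 from -0.02 to 0.06, Bhlhe40 from -0.02 to 0.20 and Bhlhe41 from -0.16 to 0.17. Fatigued against sedentary, it ranged for Bhlhe41 from -0.14 to 0.00 among controls and from -0.21 to 0.12 among PBMT mice, and there for Per1 from -0.09 to 0.22 and Ciart from -0.04 to 0.43. With no filter the interaction of Per3 was -0.01. Alternatives chosen after seeing the data were the size factors of DESeq2 for the permutation tests, where no call changed, and correlations with mice left out. Without the 2 mice farthest in Arntl, its correlation with Cry1 turned from -0.12 to 0.06 and that with Bhlhe40 moved from 0.38 to 0.66. The cause of these shifts was not tested.

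With the replicate number as a replicate block, 11 genes were called in sedentary and 1 in fatigued muscle, the calls of repressors did not change in number, and the interactions of Per3 and Bhlhe41 turned sign at 0.00. The labels do not say that the numbers pair mice. The deviations of mice with the same number correlated at -0.07 to 0.07 in sedentary muscle (0 of 6 over 0.1) and at -0.08 to 0.33 in fatigued muscle (4 of 6), and 1 and 3 of 6 controls were most like their own number, so the numbers are not shown to pair the mice.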
